A study of Mus musculus with 12 samples.

Results

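The integrated stress response was followed here through 8 genes, Atf4, Ddit3, Ppp1r15a, Trib3, Asns, Psat1, Slc7a11 and Chac1, in mouse peritoneal macrophages. The genes were chosen by symbol, and all 8 were found among the 33641 genes whose reads could be recovered from the deposited tables. Of these, 7 passed the filter on low reads, as did 15130 genes in all, and Chac1 did not. Total RNA was sequenced in 12 libraries, 3 each of SAMHD1 MDA5 DKO (labelled "SAMHD1, MDA5 DKO"), SAMHD1 KO, MDA5 KO and WT, all not treated and at day 0. SAMHD1 degrades deoxynucleotides, and MDA5, the product of Ifih1, is a receptor for cytosolic double-stranded RNA. The series title places the loss of SAMHD1 upstream of MDA5, and the comparisons therefore ask how stress response genes stand when either or both are missing. No allele, strain, sex or age is named in the labels, and nothing there ties the 3 libraries of a genotype to 3 animals. The p-values therefore measure the spread between these libraries, which may be technical.

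In the integrated stress response, a kinase phosphorylates the alpha subunit of the initiation factor eIF2, which lowers translation in general and raises that of a few messengers, among them Atf4. HRI (Eif2ak1) answers to haem shortage, PKR (Eif2ak2) to double-stranded RNA, PERK (Eif2ak3) to misfolded protein in the endoplasmic reticulum and GCN2 (Eif2ak4) to amino acid shortage. ATF4, a bZIP transcription factor, then raises genes of amino acid supply together with CHOP (Ddit3), TRIB3, CHAC1 and the phosphatase subunit GADD34 (Ppp1r15a), which reverses the phosphorylation. PKR is itself induced by interferon in macrophages, so it stands beside MDA5 among the sensors of double-stranded RNA. The libraries measure RNA, and neither eIF2 phosphorylation nor ATF4 protein was measured.

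ATF4 binds with C/EBP partners to the C/EBP-ATF response element, searched here as TGATGNAA on both strands of RefSeq promoter windows (GRCm38.p6) from 250 bases before to 50 bases after each gene start. Of the 8 genes, which have 9 windows, 4 held a match, against 3.97% of 32851 windows overall. The genes were picked as ATF4 and CHOP and their targets, so this comparison is no test of the motif. The matches are shown because these 4 genes, Asns, Slc7a11, Chac1 and Trib3, turned out to be the ones with the fewest reads per length among the 8. Each is given with its flanks, 30 bases read 5′ to 3′ on the strand of the gene, with the match in capitals. Positions, also that of Trib3 in the transcript, count from the RefSeq start.
Asns (chr6:7693214-7693243, minus strand, first base of the match at -23 from the start): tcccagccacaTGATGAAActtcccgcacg
Slc7a11 (chr3:50443661-50443690, minus strand, -66): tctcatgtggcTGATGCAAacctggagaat
Slc7a11 (chr3:50443642-50443671, minus strand, -47, the motif in reverse): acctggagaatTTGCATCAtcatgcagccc
Chac1 (chr2:119351038-119351067, plus strand, -193, in reverse): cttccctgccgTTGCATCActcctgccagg
Trib3 (chr2:152344028-152344057, minus strand, 15 bases into the transcript, in reverse): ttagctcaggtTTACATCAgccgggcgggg
A match describes these letters only. The windows of Atf4, Ddit3, Ppp1r15a and Psat1 held none, and the Psat1 windows of RefSeq do not lie at the gene end that the files give. The starts of Trib3 and Asns differ too. In the gene coordinates given below, Trib3 starts at 152344032 and Asns at 7693254. By these starts the Trib3 match lies upstream of the gene and the Asns match inside it.

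Recovered totals ran from 33234361 to 58345425 reads per library. Samhd1 lay between 1747 and 4960 normalised reads in SAMHD1 MDA5 DKO libraries and between 2954 and 3689 in those of SAMHD1 KO, against 14952 to 17462 with MDA5 lost alone and 7067 to 17124 in WT. Ifih1 lay between 0.881 and 41.9 in SAMHD1 MDA5 DKO libraries and between 0 and 20.0 in those of MDA5 KO, against 3163 to 3745 with SAMHD1 lost alone and 816 to 3357 in WT. All 9 macrophage markers passed the filter. Their normalised reads summed to between 1837678 and 2122522 in SAMHD1 MDA5 DKO, between 1920103 and 5247762 in SAMHD1 KO, between 2197951 and 2442461 in MDA5 KO and between 671849 and 3109716 in WT, where WT 3 was the lowest. The library weights of limma's voom were 0.07 for WT 3 and 0.192 for SAMHD1 KO 1, against 0.645 to 5.91 for the other 10 libraries. WT 2 summed to 12016 normalised reads over 6 mast cell markers and 4704 over 5 B cell markers, against 11 to 1396 and 68 to 325 in the other libraries. The 4 haemoglobin genes summed to between 372 and 585 in SAMHD1 KO and to 518 in WT 3, against 0 to 102 elsewhere. T cell markers summed to 337 in WT 2, against 5 to 77 elsewhere, neutrophil markers to between 27 and 366, and dendritic cell markers to between 616 and 4224. The part of these markers in any result was not tested. In bulk RNA, fewer cells of a type and less RNA per cell cannot be told apart. Many of the results that rest on WT 3 or SAMHD1 KO 1, but not all, are given with and without them.

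Levels are normalised reads, that is reads divided by a size factor per library, and differences are log2 differences of normalised reads + 1 with the standard error of limma. Per kilobase of gene length as the files give it, Atf4 was the highest of the 8 with a mean of 1610 normalised reads per kb over the 12 libraries. Psat1 followed with 231, Ppp1r15a with 185 and Ddit3 with 155. The other 4 were far lower on that scale, Trib3 at 9.35, Asns at 6.94, Chac1 at 0.901 and Slc7a11 at 0.755 normalised reads per kb. Resting macrophages of all 4 genotypes thus carried much Atf4 messenger and little from several genes that ATF4 is known to raise.

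**Figure D1:**
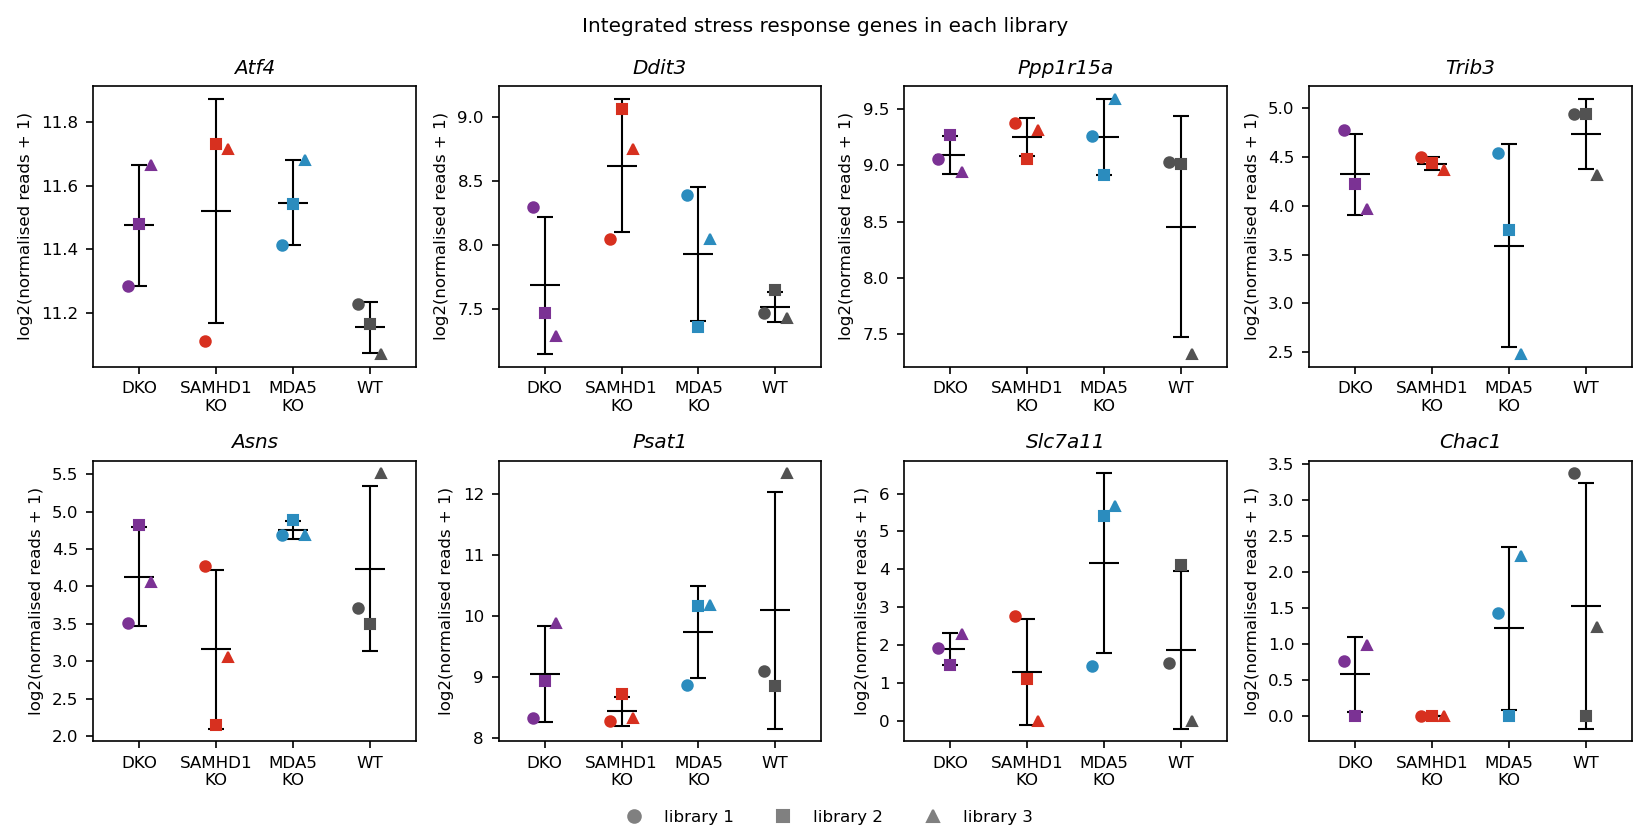
Level of each of the 8 genes in each library, as log2(normalised reads + 1), with genotype on the x axis (DKO stands for SAMHD1 MDA5 DKO), 1 symbol per library number, and the mean with its SD over 3 libraries. Ddit3 has its 2 highest libraries in SAMHD1 KO, and WT 3 stands apart in Ppp1r15a, Psat1 and Asns.

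No member passed limma's test with Benjamini-Hochberg adjustment over all 15130 genes in any of the 6 pairwise comparisons or in the interaction, and few other genes did. In SAMHD1 KO minus WT, 0 of 7 tested members passed, against 0% of all genes. Samhd1 itself was among the genes that did not pass there, so this 0 does not set the members apart. At an unadjusted p under 0.05, 1 member was higher, against 9.87% of all genes, and 1 was lower, against 5.57%. Libraries of the genotypes did not overlap for 3 members, of which 2 were higher, against 12.3% of all genes, and 1 was lower, against 7.85%. In MDA5 KO minus WT, 0 of 7 passed, against 0.00661% of all genes, and 0 of 7 lay under the unadjusted threshold, against 22.4%. There, 1 member was higher in all libraries, against 13.9% of all genes. In SAMHD1 MDA5 DKO minus WT the counts were also 0 and 0 of 7, against 0.00661% and 27.8% of all genes, and 1 member was higher in all libraries, against 17.5%.

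The remaining comparisons were alike in their calls. In SAMHD1 MDA5 DKO minus SAMHD1 KO, 0 of 7 passed in limma, against 0.0132% of all genes, and 1 was lower at the unadjusted threshold, against 5.29%. The libraries overlapped for all 7, where 18.3% of all genes did not overlap. SAMHD1 MDA5 DKO minus MDA5 KO had 0 and 0 of 7 in limma, against 0% and 1.02% of all genes, and again the libraries overlapped for all 7, where 7.04% of all genes did not. Samhd1 did not pass in this comparison either. In SAMHD1 KO minus MDA5 KO, 0 of 7 passed in limma, against 0.00661%, and 2 were lower at the unadjusted threshold, against 4.89%. In all libraries 2 were lower, against 8.74% of all genes. The interaction, the SAMHD1 MDA5 DKO minus SAMHD1 KO difference less that of MDA5 KO minus WT, had 0 of 7 past the adjusted and 1 past the unadjusted threshold in limma, against 0% and 3.21% of all genes. The 1 was lower, against 2.35%. Plain voom also called 0 members in each.

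Some other settings passed many more genes of every kind, and a pass given for them has to be read against these shares. Limma with array quality weights called up to 5 of the 7 members, in SAMHD1 KO minus MDA5 KO, where 44.4% of all genes passed. It passed 45.1% of all genes in SAMHD1 KO minus WT, 29% in MDA5 KO minus WT, 38.1% in SAMHD1 MDA5 DKO minus WT, 44.9% in SAMHD1 MDA5 DKO minus SAMHD1 KO and 8.81% in the interaction. Voom with library quality weights passed 14.1% in SAMHD1 KO minus WT, 41.1% in SAMHD1 MDA5 DKO minus SAMHD1 KO and 38.7% in SAMHD1 KO minus MDA5 KO. Without WT 3 and SAMHD1 KO 1 together, a setting chosen after seeing the data, limma passed 2.54% of all genes in SAMHD1 KO minus WT, 7.52% in SAMHD1 MDA5 DKO minus WT, 25.2% in SAMHD1 MDA5 DKO minus SAMHD1 KO and 24.6% in SAMHD1 KO minus MDA5 KO.

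The median difference of the 7 members was -0.30 in SAMHD1 KO minus WT, 0.41 in MDA5 KO minus WT and 0.014 in SAMHD1 MDA5 DKO minus WT, where the medians of all genes were 0.028, 0.083 and 0.065. It was -0.045 in SAMHD1 MDA5 DKO minus SAMHD1 KO, -0.25 in SAMHD1 MDA5 DKO minus MDA5 KO and -0.026 in SAMHD1 KO minus MDA5 KO, with all-gene medians of 0.018, -0.002 and -0.012. The sign of the first rested on single libraries, with 0.37 without WT 2 and 0.057 without SAMHD1 KO 3, and was 0.062 without WT 3, SAMHD1 KO 2 and SAMHD1 MDA5 DKO 3 together. With single libraries left out, SAMHD1 MDA5 DKO minus WT lay between -0.17 and 0.24, SAMHD1 MDA5 DKO minus SAMHD1 KO between -0.078 and 0.067, and SAMHD1 KO minus MDA5 KO between -0.17 and 0.042. MDA5 KO minus WT lay between 0.36 and 0.46, and SAMHD1 MDA5 DKO minus MDA5 KO between -0.47 and -0.16. These comparisons share libraries. Single members ranged from -1.66 to 1.10 in SAMHD1 KO minus WT and from -1.14 to 2.29 in MDA5 KO minus WT. The members did not share a direction in any of the 6 comparisons.

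**Figure D2:**
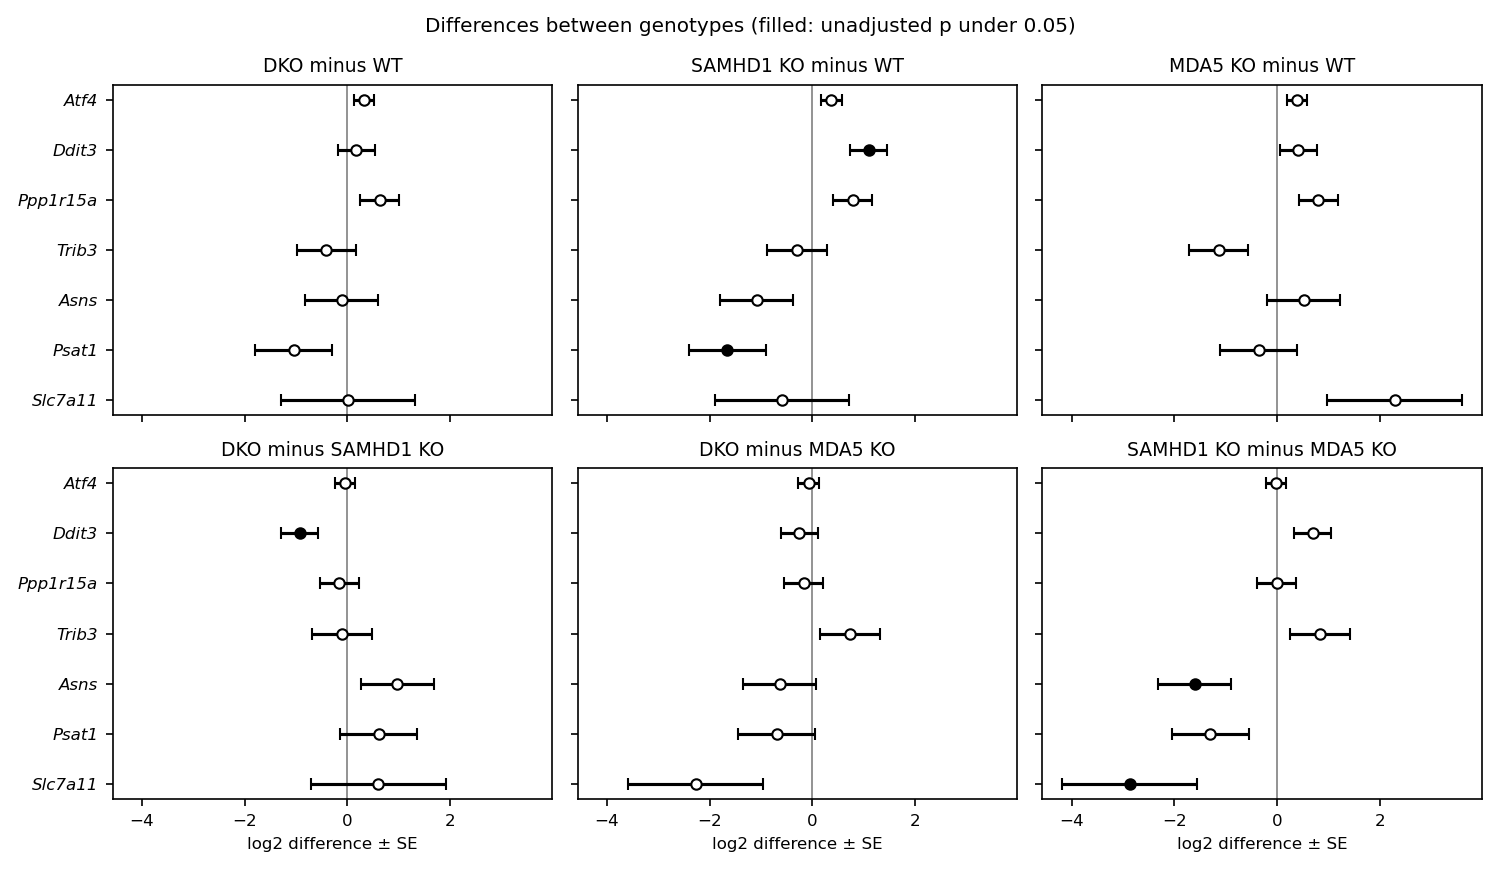
Log2 difference of each of the 7 tested genes in the 6 comparisons, with its standard error from limma, filled where the unadjusted p is under 0.05 (DKO stands for SAMHD1 MDA5 DKO). In SAMHD1 KO minus WT, Ddit3 lies at 1.10 and Psat1 at -1.66, and Slc7a11 has the widest errors throughout.

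The kinases that feed the response were well detected in all genotypes. PKR (Eif2ak2) had 2764, 2723 and 2296 normalised reads in the SAMHD1 MDA5 DKO libraries, 2958, 2445 and 2400 in the SAMHD1 KO libraries, 1816, 1907 and 2106 in the MDA5 KO libraries, and 2760, 1886 and 332 in the WT libraries. WT 3 was alone below 1816, and the other WT libraries lay within the range of the knockouts. The difference of SAMHD1 KO minus WT was 1.11 ± 0.56 (limma, adjusted p = 0.342), and 0.18 without WT 3. GCN2 (Eif2ak4) had 950, 782 and 900 normalised reads in the SAMHD1 MDA5 DKO libraries, 654, 704 and 659 in the SAMHD1 KO libraries, 799, 754 and 734 in the MDA5 KO libraries, and 641, 541 and 203 in the WT libraries. All libraries of each knockout genotype lay above all 3 of WT. Of all genes, 17.5% were likewise higher throughout in SAMHD1 MDA5 DKO, 12.3% in SAMHD1 KO and 13.9% in MDA5 KO.

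GCN2 differed by 1.08 ± 0.34 in SAMHD1 MDA5 DKO minus WT (limma, adjusted p = 0.127) and by 0.88 ± 0.34 in MDA5 KO minus WT (adjusted p = 0.196), or by 0.57 and 0.37 without WT 3. The first did not pass without WT 3 alone (limma, adjusted p = 0.16). Without WT 3 and SAMHD1 KO 1 together it passed (limma, adjusted p = 0.0363), as did 7.52% of all genes. SAMHD1 KO 1 is not part of this comparison and enters only through the shared estimate of spread. PERK (Eif2ak3) had 2476, 2737 and 1964 normalised reads in the SAMHD1 MDA5 DKO libraries, 2717, 1553 and 1670 in the SAMHD1 KO libraries, 2627, 2094 and 2061 in the MDA5 KO libraries, and 1515, 1562 and 1030 in the WT libraries. SAMHD1 MDA5 DKO and MDA5 KO lay wholly above WT, as for 17.5% and 13.9% of all genes, and SAMHD1 KO overlapped with WT. The PERK difference was 0.82 ± 0.25 in SAMHD1 MDA5 DKO minus WT (limma, adjusted p = 0.127) and 0.74 ± 0.25 in MDA5 KO minus WT (adjusted p = 0.196), or 0.62 and 0.55 without WT 3. The first did not pass without WT 3 alone (limma, adjusted p = 0.231) and passed without both libraries (limma, adjusted p = 0.035). HRI (Eif2ak1) ran from 2983 in WT 3 to 5867 in SAMHD1 KO 1, with all genotypes overlapping.

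**Figure D3:**
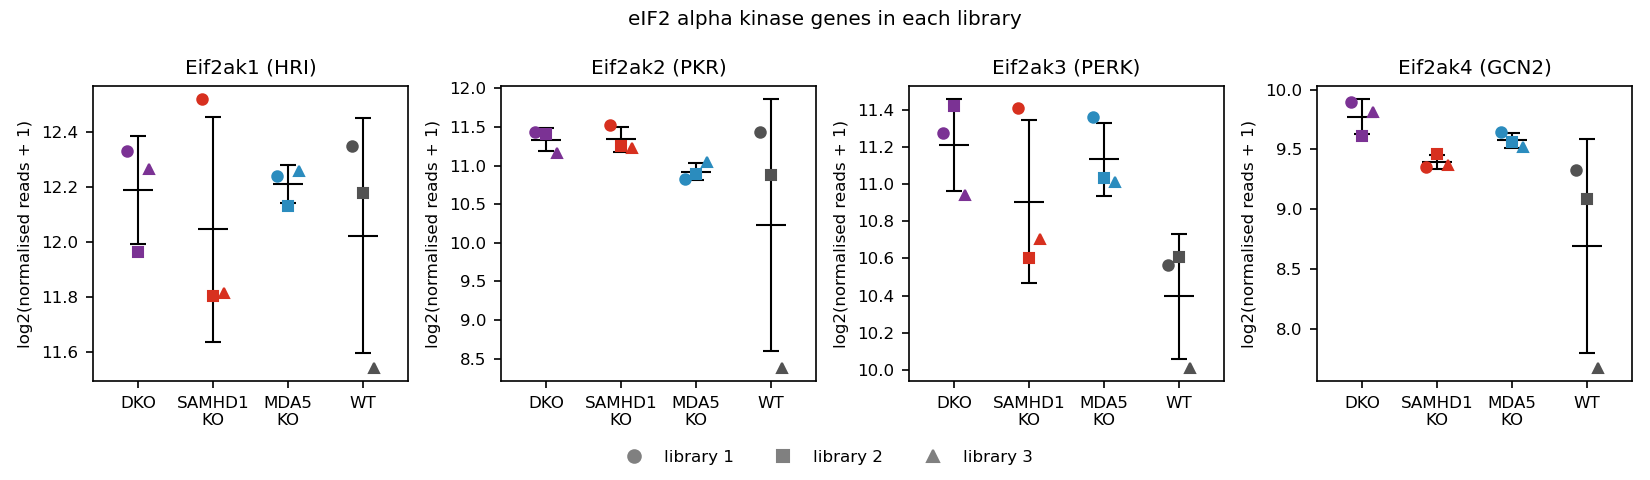
Level of the 4 eIF2 alpha kinase genes in each library, as log2(normalised reads + 1), by genotype (DKO stands for SAMHD1 MDA5 DKO), with the mean and SD over 3 libraries. WT 3 is the lowest library for each of the 4, at 332 normalised reads for Eif2ak2.

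Atf4 (ENSMUSG00000042406, GRCm38 chromosome 15, 80255184 to 80257540), the transcription factor at the centre of the response, varied little. It had 2492, 2854 and 3245 normalised reads in the SAMHD1 MDA5 DKO libraries, 2211, 3403 and 3365 in the SAMHD1 KO libraries, 2727, 2985 and 3285 in the MDA5 KO libraries, and 2396, 2292 and 2148 in the WT libraries. All libraries of SAMHD1 MDA5 DKO and of MDA5 KO were above all of WT, while SAMHD1 KO 1 fell inside the WT range. Atf4 was the only one of the 7 whose groups did not overlap in SAMHD1 MDA5 DKO minus WT and in MDA5 KO minus WT, where 17.5% and 13.9% of all genes were likewise higher throughout. The means were 2864 ± 377 normalised reads in the SAMHD1 MDA5 DKO libraries, 2993 ± 678 in the SAMHD1 KO libraries, 2999 ± 279 in MDA5 KO and 2279 ± 124 in WT (SD, n = 3 each).

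The Atf4 differences from WT were similar, 0.32 ± 0.20 for SAMHD1 MDA5 DKO, 0.37 ± 0.20 for SAMHD1 KO and 0.39 ± 0.20 for MDA5 KO, and the adjusted p of limma was 0.293, 0.367 and 0.252. The shared WT libraries enter all of them. Weighting libraries by array quality moved them to 0.28, 0.54 and 0.45 (limma, adjusted p = 0.0458, 8.72e-05 and 0.00559). SAMHD1 MDA5 DKO minus SAMHD1 KO was -0.045 ± 0.20, or -0.26 with array quality weights (limma, adjusted p = 0.0376), and its sign turned when SAMHD1 KO 2, SAMHD1 KO 3 or SAMHD1 MDA5 DKO 1 was left out, with 0.062, 0.054 and 0.052.

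Ddit3 (ENSMUSG00000025408, chromosome 10, 127290774 to 127296288) encodes CHOP, a factor that ATF4 raises and that promotes death under lasting stress. It had 314, 176 and 156 normalised reads in the SAMHD1 MDA5 DKO libraries, 264, 535 and 430.4 in the SAMHD1 KO libraries, 335, 164 and 263 in the MDA5 KO libraries, and 177, 200.3 and 172 in the WT libraries. The SAMHD1 KO libraries were all above WT, and the 2 highest of the 12 libraries were SAMHD1 KO 2 and 3. MDA5 KO overlapped with WT, and so did SAMHD1 MDA5 DKO, which also overlapped with SAMHD1 KO through its library 1. The means were 215 ± 85.6 in SAMHD1 MDA5 DKO, 410 ± 137 in SAMHD1 KO, 254 ± 86.2 in MDA5 KO and 183 ± 15.3 in WT (SD, n = 3 each).

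The fitted Ddit3 level was 2.15-fold higher in SAMHD1 KO than in WT, a log2 difference of 1.10 ± 0.36 that did not pass (limma, unadjusted p = 0.00925, adjusted p = 0.312). The SAMHD1 MDA5 DKO minus SAMHD1 KO difference was -0.93 ± 0.36 (limma, unadjusted p = 0.0224, adjusted p = 0.562). The interaction was -1.35 ± 0.51 (limma, unadjusted p = 0.0202, adjusted p = 0.894). Leaving out any single library kept the first between 0.88 and 1.39, the second between -1.24 and -0.71 and the third between -1.65 and -1.12. Without WT 3 and SAMHD1 KO 1 together, SAMHD1 MDA5 DKO minus SAMHD1 KO was -1.22 ± 0.34 and passed (limma, adjusted p = 0.0208), while SAMHD1 KO minus WT was 1.35 ± 0.37 and did not (adjusted p = 0.0745). SAMHD1 KO minus MDA5 KO was 0.69 ± 0.36 (limma, adjusted p = 0.554), between 0.40 without MDA5 KO 2 and 0.98 without SAMHD1 KO 1, and 0.26 in the deposited log2 columns. With array quality weights the first 3 passed, at 1.16, -1.07 and -1.44 (limma, adjusted p = 9.14e-05, 0.00078 and 0.0174), and so did SAMHD1 KO minus MDA5 KO, at 0.79 (limma, adjusted p = 0.006).

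**Figure D4:**
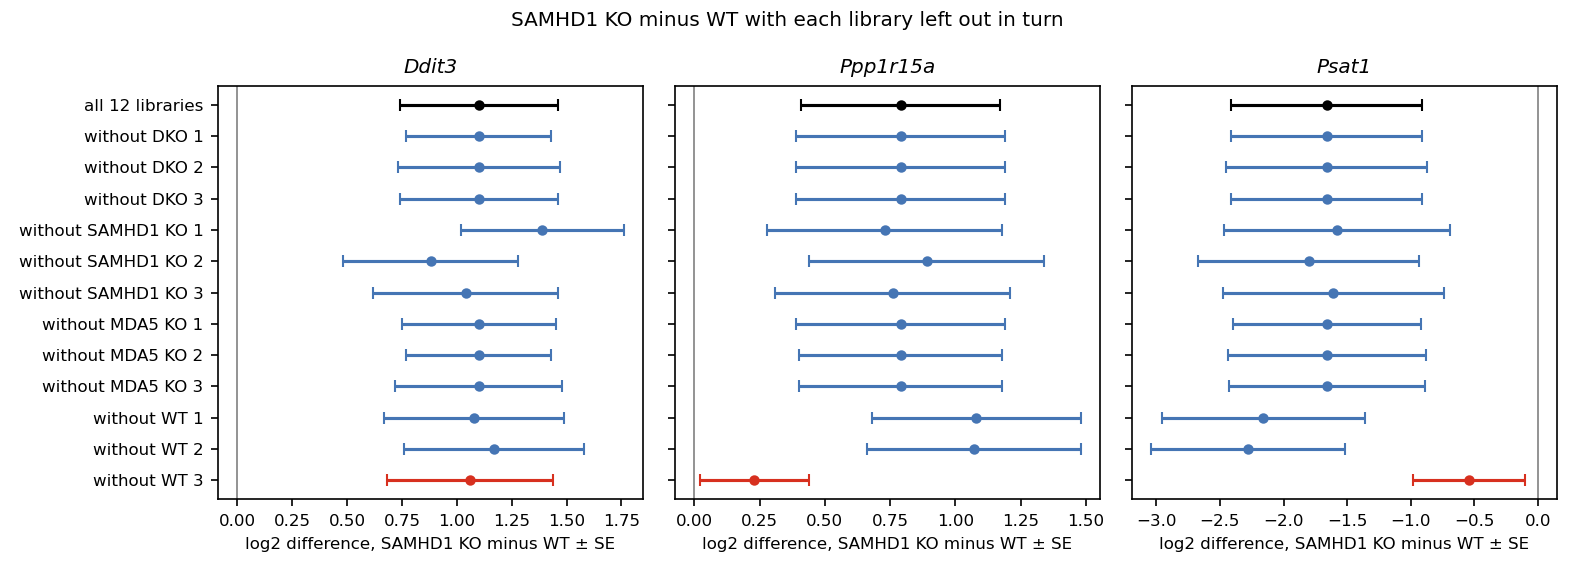
Log2 difference of SAMHD1 KO minus WT with its standard error for Ddit3, Ppp1r15a and Psat1, with all 12 libraries (black) and with each library left out in turn, WT 3 in red (DKO stands for SAMHD1 MDA5 DKO). Ddit3 stays between 0.88 and 1.39, while without WT 3 Ppp1r15a drops to 0.23 and Psat1 moves to -0.54.

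In the annotation the Ddit3 gene shares 68 bases with Mars and 15 with Gm4189, both on the other strand, and contains a second gene entry of the same name. The labels do not state whether strand was used in counting, so such reads cannot be told apart. Gm4189 had at most 18.1 normalised reads in any library, and Mars between 1043 and 2065. The SAMHD1 KO libraries 2 and 3, highest for Ddit3, also had the highest macrophage marker sums, 5247762 and 4974083, against at most 3109716 in the other libraries, and haemoglobin sums were 372 to 585 in SAMHD1 KO.

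Ppp1r15a and Trib3 encode the feedback arm. Ppp1r15a (ENSMUSG00000040435, chromosome 7, 45522916 to 45526268) gives GADD34, which brings a phosphatase to eIF2. It had 530.1, 617 and 491 normalised reads in the SAMHD1 MDA5 DKO libraries, 664, 533 and 633 in the SAMHD1 KO libraries, 611, 482 and 769 in the MDA5 KO libraries, and 522, 515 and 159 in the WT libraries. WT 3 was alone below 482, and the other WT libraries lay among the lower knockout libraries. All of SAMHD1 KO was above WT, as for 12.3% of all genes, and the difference was 0.79 ± 0.38 (limma, adjusted p = 0.333). Without WT 3 it was 0.23 ± 0.21. Ppp1r15a overlaps with Tulp2 over 717 bases, and Tulp2 had at most 1.35 normalised reads.

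Trib3 (ENSMUSG00000032715, chromosome 2, 152337422 to 152344032), a pseudokinase that curbs ATF4 and CHOP, was scarce. It had 26.5, 17.6 and 14.6 normalised reads in the SAMHD1 MDA5 DKO libraries, 21.6, 20.7 and 19.6 in the SAMHD1 KO libraries, 22.2, 12.5 and 4.59 in the MDA5 KO libraries, and 29.8, 29.8 and 18.9 in the WT libraries. All genotypes overlapped, and the lowest library was MDA5 KO 3. The highest levels were those of WT 1 and WT 2, and not of SAMHD1 KO as for Ddit3. MDA5 KO minus WT was -1.14 ± 0.58 (limma, adjusted p = 0.247). It was -0.59 without MDA5 KO 3, -1.62 without MDA5 KO 1 and -0.28 in the deposited log2 columns, and passed with array quality weights, at -1.94 (limma, adjusted p = 0.00494).

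Asns, Psat1 and Slc7a11, genes of amino acid supply, had the lowest of their 4 genotype means in SAMHD1 KO, and none of their differences passed in the unweighted limma fit of all 12 libraries. Asns (ENSMUSG00000029752, chromosome 6, 7675169 to 7693254) encodes asparagine synthetase. It had 10.4, 27.3 and 15.6 normalised reads in the SAMHD1 MDA5 DKO libraries, 18.3, 3.44 and 7.34 in the SAMHD1 KO libraries, 24.8, 28.7 and 24.8 in the MDA5 KO libraries, and 12.1, 10.3 and 44.6 in the WT libraries. SAMHD1 KO lay wholly below MDA5 KO, and the 44.6 of WT 3 was the highest of the 12 libraries. The difference of SAMHD1 KO minus MDA5 KO was -1.60 ± 0.71 (limma, unadjusted p = 0.0423, adjusted p = 0.518). It was -2.15 ± 0.63 without WT 3 and SAMHD1 KO 1 together (limma, adjusted p = 0.0272). With quality weights it passed too, at -2.05 with voom and -1.81 with limma (adjusted p = 0.00474 and 0.00319). It was -0.19 in the deposited log2 columns, where SAMHD1 KO 2 had been set to the mean of the other 5 libraries.

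Psat1 (ENSMUSG00000024640, chromosome 19, 15904678 to 15947337) encodes phosphoserine aminotransferase, an enzyme of serine synthesis. It had 321, 488 and 944 normalised reads in the SAMHD1 MDA5 DKO libraries, 309, 419 and 320.4 in the SAMHD1 KO libraries, 466, 1144 and 1161 in the MDA5 KO libraries, and 547, 463 and 5199 in the WT libraries. WT 3 held more than any other library, and SAMHD1 KO lay wholly below both WT and MDA5 KO, as did 7.85% and 8.74% of all genes. The difference of SAMHD1 KO minus WT was -1.66 ± 0.75 (limma, unadjusted p = 0.046, adjusted p = 0.319). Without WT 3 it was -0.54 ± 0.44 (limma, adjusted p = 0.748).

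The other Psat1 differences from WT turned round with that library. SAMHD1 MDA5 DKO minus WT was -1.05 ± 0.75, and 0.072 ± 0.44 without WT 3. MDA5 KO minus WT was -0.36 ± 0.75, and 0.76 ± 0.44 without WT 3, and passed with array quality weights at 1.06 (limma, adjusted p = 0.0357). SAMHD1 KO minus MDA5 KO, which does not use WT, was -1.30 ± 0.75 and passed with both library weightings, at -1.46 with voom and -1.56 with limma (adjusted p = 0.00539 and 0.00204). The pseudogene Gm3329 lies within the Psat1 gene over 556 bases.

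In the authors' deposited table, Psat1 was the only one of the 8 with an adjusted p under 0.05. That table gave a log2 fold change of -1.38 in SAMHD1 KO minus WT (adjusted p = 0.017) and -0.96 in SAMHD1 MDA5 DKO minus WT (adjusted p = 0.0414). Of all genes listed, 168 of 27706 and 2101 of 28313 were under 0.05 there. The authors' deposited table of SAMHD1 KO and MDA5 KO is written as MDA5 KO minus SAMHD1 KO, and gave 1.10 (adjusted p = 0.00575). Of all genes listed there, 250 of 31169 were under 0.05. For Ddit3, the authors' deposited table gave 0.93 in SAMHD1 KO minus WT (adjusted p = 0.12) and -0.74 in SAMHD1 MDA5 DKO minus SAMHD1 KO (adjusted p = 0.116).

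Slc7a11 (ENSMUSG00000027737, chromosome 3, 49892526 to 50443614) encodes the cystine importer xCT. It rested on few reads, 4, 2 and 4 in the SAMHD1 MDA5 DKO libraries, 7, 1 and 0 in the SAMHD1 KO libraries, 2, 33 and 54 in the MDA5 KO libraries, and 2, 16 and 0 in the WT libraries. MDA5 KO 2 and 3 were the highest of the 12, and MDA5 KO 1 lay inside the range of SAMHD1 KO. The difference of SAMHD1 KO minus MDA5 KO on the log2(normalised reads + 1) scale was -2.87 ± 1.31 (limma, unadjusted p = 0.0482, adjusted p = 0.521). It passed with voom and limma quality weights, at -4.81 and -4.67 (adjusted p = 0.00458 and 0.000356). Its size depended on the pseudocount, -3.26 with 0.5 and -1.89 with 5, and it was -0.45 in the deposited log2 columns. A count of 0 allows up to 3 reads, or 0.0837 CPM in SAMHD1 KO 3 and 0.0903 CPM in WT 3, by counting error alone. An antisense gene, Gm37854, shares 8812 bases of the Slc7a11 gene.

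Chac1 (ENSMUSG00000027313, chromosome 2, 119351229 to 119354381), a glutathione-degrading enzyme, had 19 reads in all. There were 2 in SAMHD1 MDA5 DKO, 0 in SAMHD1 KO, 6 in MDA5 KO and 11 in WT, of which 10 were in WT 1. No difference was detectable at this depth. In the SAMHD1 KO libraries the count of 0 allows up to 3 reads per library, which is 0.0568 to 0.0837 CPM.

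The members did not vary as 1 block over the libraries. Among the 21 pairs of the 7 tested genes, Pearson's r of the log2 values over 12 libraries ran from -0.78 to 0.66 with a median of -0.20, and 9 were above 0. Without WT 3, 10 of the 21 were above 0. Asns and Psat1 had the highest r, 0.66, or 0.51 without WT 3. Psat1 and Slc7a11 had 0.061 with WT 3 and 0.70 without it, and Asns and Slc7a11 0.22 and 0.51. Ddit3 had -0.67 with Asns, -0.53 with Psat1 and -0.31 with Slc7a11, and 0.39 with Atf4. These are descriptions of 12 libraries that share genotype, cell makeup and depth.

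The mean of the 7 genes, each centred over the libraries, was highest in MDA5 KO 3 at 0.57 and MDA5 KO 2 at 0.52, and lowest in SAMHD1 KO 3 at -0.40 and SAMHD1 KO 2 at -0.30. Slc7a11, which spans the widest log2 range, followed this mean most closely, with r of 0.90, while Trib3 had -0.69 and Ddit3 -0.42. The other tested genes most like the mean were Pald1 (0.92), Basp1 (0.88), Cnn2, Tns4 and Aloxe3 (0.85 each). The least like were Zfp78 and Cecr5 (-0.85 each) and Ttc4 (-0.83). Pald1 had 62.4, 78.7 and 87.2 normalised reads in MDA5 KO, against 30.7, 38.0 and 35.1 in WT.

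The surrounding pathway was described through 10 lists with 88 tested genes. Of these, 0 passed the adjusted test of limma or of plain voom in any comparison. At an unadjusted p under 0.05 in limma, 3 were higher and 10 lower in SAMHD1 KO minus WT, or 14.8% of the 88 against 15.4% of all genes. In SAMHD1 MDA5 DKO minus SAMHD1 KO, 10 were higher and 4 lower, or 15.9% against 8.81%, and in SAMHD1 KO minus MDA5 KO 2 were higher and 16 lower, or 20.5% against 9.53%. In SAMHD1 MDA5 DKO minus MDA5 KO 1.14% lay under it, against 1.02% of all genes. In SAMHD1 MDA5 DKO minus WT it was 21.6%, against 27.8%, and in MDA5 KO minus WT 15.9%, against 22.4%. With array quality weights, 43 were higher and 11 lower of the 88 in SAMHD1 MDA5 DKO minus SAMHD1 KO, and 6795 of all 15130 genes passed there.

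**Figure D5:**
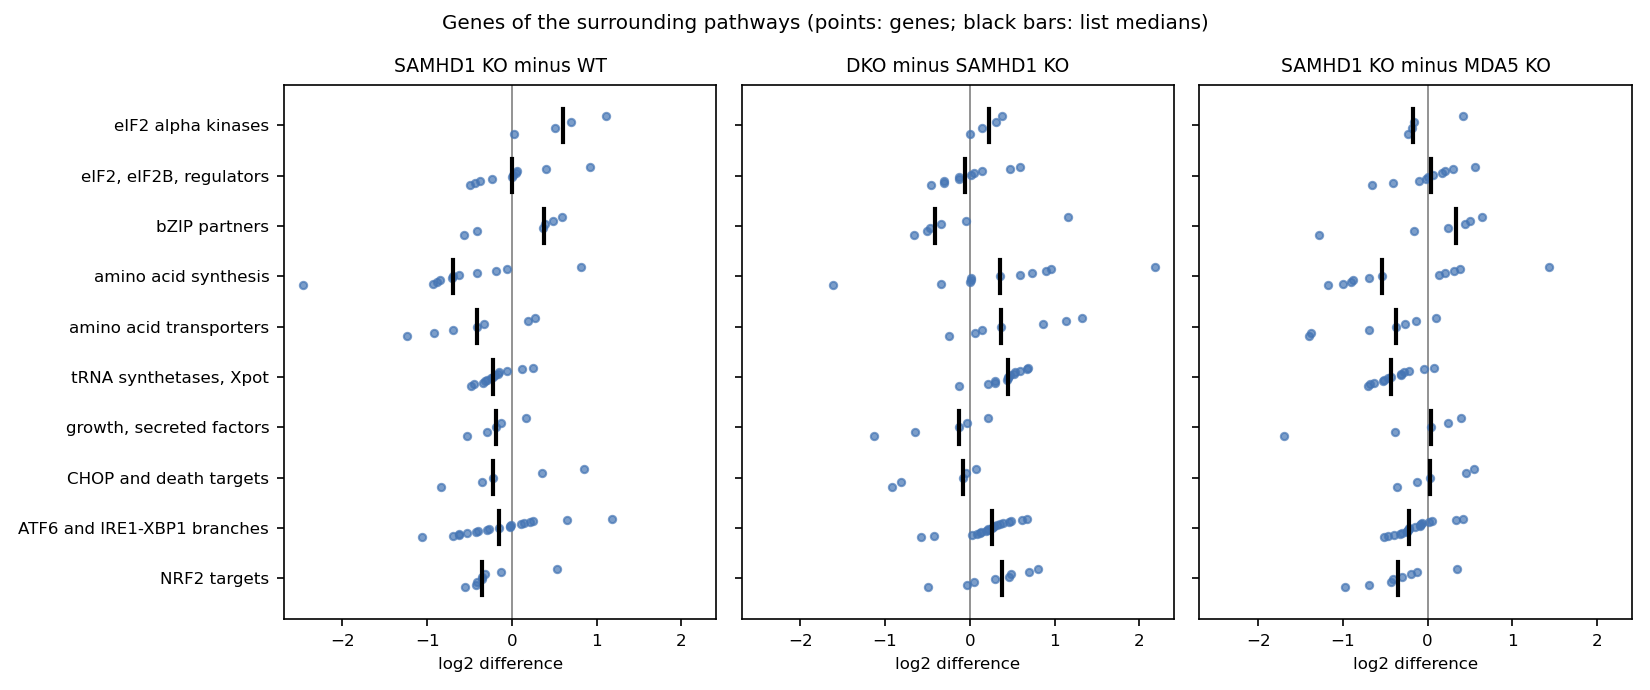
Log2 difference of each tested gene of the 10 lists (points) and the list median (black bar) in 3 comparisons that share the SAMHD1 KO libraries (DKO stands for SAMHD1 MDA5 DKO). The tRNA synthetase genes lie mostly below 0 in SAMHD1 KO minus WT, with a median of -0.22, and mostly above 0 in SAMHD1 MDA5 DKO minus SAMHD1 KO, with a median of 0.45.

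Aminoacyl-tRNA synthetases are raised by ATF4 as a group when amino acids run short. Of 13 tested genes, 11 were below WT in SAMHD1 KO with a median of -0.22, where 48.3% of all genes were below 0, and 0 of the 13 reached the unadjusted threshold. In SAMHD1 KO minus MDA5 KO, 12 were below 0 with a median of -0.43, against 51.1% of all genes, and 4 were lower at the unadjusted threshold, against 4.89%. In SAMHD1 MDA5 DKO minus SAMHD1 KO, 12 were above 0 with a median of 0.45, against 51.7% of all genes, and 3 were higher at that threshold, against 3.52%. The medians of all genes were 0.028, -0.012 and 0.018. Without WT 3 and SAMHD1 KO 1 together the medians were -0.45, -0.62 and 0.62. Eprs, the glutamyl-prolyl-tRNA synthetase, had 3718, 4088 and 5890 normalised reads in the SAMHD1 MDA5 DKO libraries, 3911, 2263 and 2432 in the SAMHD1 KO libraries, 3399, 5812 and 4699 in the MDA5 KO libraries, and 3675, 2387 and 1911 in the WT libraries. Its difference of SAMHD1 MDA5 DKO minus SAMHD1 KO was 0.69 ± 0.31 (limma, adjusted p = 0.562), or 0.93 without WT 3 and SAMHD1 KO 1 together (limma, adjusted p = 0.0265), and SAMHD1 KO 1 lay within the range of SAMHD1 MDA5 DKO.

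Of 11 tested enzymes of serine, one-carbon and other amino acid synthesis, 10 were below WT in SAMHD1 KO with a median of -0.70, against 48.3% of all genes below 0. At the unadjusted threshold 4 were lower, against 5.57% of all genes, and without WT 3 the median was -0.27 with 1 lower. The other genotypes also lay below WT in 8 of the 11, with medians of -0.26 in SAMHD1 MDA5 DKO and -0.40 in MDA5 KO, which were 0.18 and 0.034 without WT 3. In SAMHD1 KO minus MDA5 KO, 5 were above and 6 below 0, with a median of -0.54. There 3 were lower at the unadjusted threshold, against 4.89% of all genes. In SAMHD1 MDA5 DKO minus SAMHD1 KO, 9 were above and 2 below 0, with a median of 0.36, and 2 were higher at that threshold, against 3.52%. Pycr1, which makes proline, had 10.4, 9.69 and 31.2 normalised reads in the SAMHD1 MDA5 DKO libraries, 3.33, 3.44 and 1.22 in the SAMHD1 KO libraries, 6.84, 2.50 and 5.50 in the MDA5 KO libraries, and 13.9, 11.3 and 37.8 in the WT libraries. SAMHD1 KO was below every library of WT and of SAMHD1 MDA5 DKO. MDA5 KO was so too, and it overlapped with SAMHD1 KO, so low Pycr1 was not particular to SAMHD1 KO. The Pycr1 interaction was 3.95 ± 1.04 on few reads (limma, unadjusted p = 0.00243, adjusted p = 0.894).

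Amino acid transporters, 7 of which were tested, were below MDA5 KO in SAMHD1 KO in 6, with a median of -0.37, where 51.1% of all genes were below 0. At the unadjusted threshold 3 were lower, against 4.89% of all genes. Slc7a5, the large neutral amino acid transporter, had 140, 231 and 457 normalised reads in the SAMHD1 MDA5 DKO libraries, 190, 72.3 and 66.0 in the SAMHD1 KO libraries, 153, 381 and 295 in the MDA5 KO libraries, and 206, 110 and 536 in the WT libraries. It differed by -1.40 ± 0.62 in SAMHD1 KO minus MDA5 KO (limma, unadjusted p = 0.0424, adjusted p = 0.518). SAMHD1 KO 1 lay above MDA5 KO 1, so the genotypes overlapped.

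Of 6 tested bZIP partners and related factors, 1 was above and 5 below 0 in SAMHD1 MDA5 DKO minus SAMHD1 KO, with a median of -0.40, and 4 were above 0 in SAMHD1 KO minus MDA5 KO, with a median of 0.34. Cebpb, the 1 above 0 in the first, went against the rest of its list. It had 11626, 18749 and 20161 normalised reads in the SAMHD1 MDA5 DKO libraries, 7813, 7305 and 6888 in the SAMHD1 KO libraries, 11133, 28886 and 17344 in the MDA5 KO libraries, and 14934, 11605 and 7482 in the WT libraries. It encodes C/EBP beta, a bZIP factor of macrophages that pairs with ATF4 and CHOP. SAMHD1 KO lay wholly below SAMHD1 MDA5 DKO and MDA5 KO, and 8.74% of all genes were likewise lower throughout than in MDA5 KO. The Cebpb difference was 1.16 ± 0.35 in SAMHD1 MDA5 DKO minus SAMHD1 KO (limma, unadjusted p = 0.00549, adjusted p = 0.562) and -1.28 ± 0.35 in SAMHD1 KO minus MDA5 KO (unadjusted p = 0.00295, adjusted p = 0.375). Both passed without WT 3 and SAMHD1 KO 1 together, at 1.21 and -1.32 (limma, adjusted p = 0.0454 and 0.0334), as did 25.2% and 24.6% of all genes.

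Of 5 tested genes of the CHOP and death list, Pmaip1 was, like Ddit3 and 12.3% of all genes, higher in all SAMHD1 KO libraries than in any of WT. Pmaip1 encodes NOXA, a BH3-only protein that both p53 and stress factors raise. It had 357, 213 and 266 normalised reads in the SAMHD1 MDA5 DKO libraries, 479, 544 and 536 in the SAMHD1 KO libraries, 383, 328 and 350 in the MDA5 KO libraries, and 238, 289 and 343 in the WT libraries. SAMHD1 KO lay above every other library. The difference was 0.85 ± 0.24 in SAMHD1 KO minus WT (limma, unadjusted p = 0.00347, adjusted p = 0.312), -0.92 ± 0.24 in SAMHD1 MDA5 DKO minus SAMHD1 KO (unadjusted p = 0.00198, adjusted p = 0.562) and -1.22 ± 0.34 in the interaction (unadjusted p = 0.00313, adjusted p = 0.894). The list median was -0.22 in SAMHD1 KO minus WT, with 3 of the 5 below 0. The lowest of the list there was Tnfrsf10b, at -0.84, with at most 36.5 normalised reads in any library. Without WT 3 and SAMHD1 KO 1 together, Pmaip1 passed at 1.04 and -0.98 (limma, adjusted p = 0.0468 and 0.00777), as did 2.54% and 25.2% of all genes, and not in the interaction (adjusted p = 0.0897).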

How the data were processed

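RNA from 12 libraries was analysed from 6 deposited tables, 1 per pair of genotypes, and every library was grouped by its title. The 8 genes and the pathway lists were chosen with earlier results of these data known. The library columns deposited by the authors are log2 values, variance-stabilised and, by their values, adjusted gene by gene between WT 3, SAMHD1 KO 2 and SAMHD1 MDA5 DKO 3 and the other 9 libraries. The tables also deposited a mean signal (reads divided by size factors), a log2 fold change with its standard error, a test score and p-values. The submitters' processing notes name STAR, Salmon, R 4.1.2 and DESeq2 with GRCm38 and mm10, and the extract protocol lists Ensembl Gene 61, bedtools 2.16.2 and pBWA 0.5.9-r32-MPI-patch2. Which of these made the tables, and whether strand was used, is not given in the sources used here.

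Whole reads were recovered from the tables for 33641 genes, 100% of values within 0.05 reads of a whole number, with 0 disagreements between tables. The recovery and the fit were tested on simulated data. For the fit, the simulated reads had the same spread setting for all genes and no outlying library, unlike WT 3 and SAMHD1 KO 1 here. That simulation therefore cannot show how often the fit would miss a difference in these libraries. Size factors by the median of ratios scaled the reads, and log2(normalised reads + 1) was fitted with limma 3.58.1 in R 4.3.3, with trend and robust moderation and genotype as the only term over all 12 libraries. Genes entered that reached 0.228 CPM, or 10 reads for a library of median depth, in 3 or more libraries, 15130 in all, with Benjamini-Hochberg adjustment over them and a threshold of 0.05. The reads were recovered rather than supplied as counts, so no count model was used. Intervals for counts of 0 allow 3 reads and cover counting error only. Among libraries of different genotypes with the same number, the correlation of deviations ran from -0.0566 to 0.337 and exceeded 0.1 in 8 of 18 pairs. The highest correlation of 9 of the 12 libraries was with their own number, so a link by number may exist. As numbers are not part of the stated design, the main fit did not pair libraries by them, and a block by number was tried.

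Statistics were to be given for members with an unadjusted p under 0.05, for the kinases and for the highest and lowest gene of a list in a comparison. Those of Atf4, Ppp1r15a and Trib3, of Psat1 in 3 further comparisons and of Ddit3 in SAMHD1 KO minus MDA5 KO were added after their values were seen, as was the fit without WT 3 and SAMHD1 KO 1 and that on the 9 libraries outside the adjusted set. Other size factors, pseudocounts, filters, voom, quality weights, the deposited log2 columns, a replicate block and each library left out were tried.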

Additional observations from a re-analysis of the deposited data

How the results depend on the processing

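Under 28 other settings, 1093 of 1107 values of 40 differences of named genes kept their sign. The number of members called was 0 in every comparison with the stricter filter, which kept 4 of them, with no filter, which kept 8, and of the 7 with other size factors, pseudocounts, limma without trend, plain voom, the adjusted set as a second term, the deposited log2 columns and the 6 or 9 libraries alone, and 0 with each library left out in turn. Voom with library quality weights called 2 in SAMHD1 KO minus WT, 2 in SAMHD1 MDA5 DKO minus SAMHD1 KO and 4 in SAMHD1 KO minus MDA5 KO, where 14.1%, 41.1% and 38.7% of all genes passed. Limma with array quality weights called 3 and 4 in SAMHD1 KO and MDA5 KO minus WT, 1 in SAMHD1 MDA5 DKO minus WT, 3 in SAMHD1 MDA5 DKO minus SAMHD1 KO, 5 in SAMHD1 KO minus MDA5 KO and 2 in the interaction, where 45.1%, 29%, 38.1%, 44.9%, 44.4% and 8.81% of all genes passed in the same order. That weighting gave SAMHD1 KO 3 a weight of 9.10 and WT 2 one of 6.61, against 0.0558 to 2.55 for the other libraries, so its WT and SAMHD1 KO values rest mostly on single libraries. WT 2 is also the library with the highest mast cell and B cell marker sums, 12016 and 4704. The part of these in the weighted differences from WT was not tested. Without WT 3 and SAMHD1 KO 1 together, chosen after seeing the data, 1 member passed in SAMHD1 MDA5 DKO minus SAMHD1 KO and 1 in SAMHD1 KO minus MDA5 KO, where 3811 and 3728 of all genes passed, against 2 and 1 with all libraries. The cause of these differences between fits was not tested.

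Psat1 in MDA5 KO minus WT was -0.36 and turned to 0.91 with voom quality weights, 1.06 with array quality weights, 0.53 in the deposited log2 columns, 0.20 with the adjusted set as a second term, 0.76 in the 9 libraries outside that set and 0.76 without WT 3 and SAMHD1 KO 1. Leaving out single libraries gave -0.98 to 0.76, with 0.76 without WT 3 and 0.071 without MDA5 KO 1. Psat1 in SAMHD1 MDA5 DKO minus WT turned to 0.072 without WT 3, alone or with SAMHD1 KO 1, and lay between -1.67 and 0.072 with single libraries left out. Atf4 in SAMHD1 MDA5 DKO minus SAMHD1 KO turned to 0.067 with size factors from total reads, which moved the median of all genes there to 0.13, and gave -0.25 to 0.062 with single libraries left out. Ddit3 was 0.84 in SAMHD1 KO minus WT and -0.52 in SAMHD1 MDA5 DKO minus SAMHD1 KO in the 9 libraries outside the adjusted set. The median of the 7 members moved by more than its spread between libraries in 24 of 194 values and had the other sign in 17.

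With the replicate number as a block, 0 members were called in every comparison, and Ddit3 in SAMHD1 KO minus WT kept 1.10 (limma, adjusted p = 0.208). The highest correlation of 9 of the 12 libraries was with a library of their own number, which is a hint from the data and not part of the design.

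Depth limits Chac1, with 19 reads in all, and Slc7a11, whose largest value was 54 reads.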

Other observations

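Of 19 tested genes of the ATF6 and IRE1-XBP1 branches of the unfolded protein response, which do not run through eIF2, 17 were higher in SAMHD1 MDA5 DKO than in SAMHD1 KO, with a median log2 difference of 0.26, and 15 were lower in SAMHD1 KO than in MDA5 KO, with a median of -0.22, where the medians of all genes were 0.018 and -0.012. None of the 19 was at an unadjusted p under 0.05 in limma in either comparison, and 11 higher and 7 lower were without WT 3 and SAMHD1 KO 1 together, where 19.7% of all genes were higher and 19.3% lower at that threshold. Against WT the SAMHD1 KO median was -0.15, or 0.092 without WT 3. Sdf2l1, an endoplasmic reticulum chaperone partner, had 7547, 6457 and 6470 normalised reads in the SAMHD1 MDA5 DKO libraries, 5853, 6696 and 6272 in the SAMHD1 KO libraries, 5591, 7341 and 8219 in the MDA5 KO libraries, and 10504, 8274 and 25665 in the WT libraries. All WT libraries were above all knockout libraries, and WT 3 was the highest. In SAMHD1 KO minus WT, 7.85% of all genes were likewise lower throughout. The Sdf2l1 difference of SAMHD1 KO minus WT was -1.06 ± 0.33 (limma, adjusted p = 0.312), or -0.57 without WT 3. Ern1, which encodes IRE1 alpha, had 10226, 8732 and 9634 normalised reads in the SAMHD1 MDA5 DKO libraries, 9181, 7903 and 7629 in the SAMHD1 KO libraries, 9536, 7251 and 7767 in the MDA5 KO libraries, and 5313, 6105 and 1458 in the WT libraries. It was lower in every WT library than in any knockout library, and 17.5% of all genes were likewise higher throughout in SAMHD1 MDA5 DKO. It differed by 1.39 ± 0.41 in SAMHD1 MDA5 DKO minus WT (limma, adjusted p = 0.127), or 0.74 without WT 3 and SAMHD1 KO 1 together. There it passed (limma, adjusted p = 0.013), as did 7.52% of all genes.

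Of 8 tested targets of NRF2, the factor of the oxidative stress response that also raises Slc7a11, 7 were lower in SAMHD1 KO than in MDA5 KO, with a median of -0.35, and 6 were higher in SAMHD1 MDA5 DKO than in SAMHD1 KO, with a median of 0.38. At the unadjusted threshold 2 were lower in the first, against 4.89% of all genes, and 3 higher in the second, against 3.52%. They were Txnrd1 and Srxn1 in the first, and Txnrd1, Gclc and Srxn1 in the second. Osgin1 had the lowest difference of the list in the first, -0.97, and the highest in the second, 0.8, and did not reach the threshold in either. Osgin1, an oxidative stress-induced growth inhibitor, had 143, 128 and 250 normalised reads in the SAMHD1 MDA5 DKO libraries, 74.8, 101 and 112 in the SAMHD1 KO libraries, 180, 224 and 161 in the MDA5 KO libraries, and 162, 88.3 and 18.9 in the WT libraries. Among growth control and secreted factors, the stress cytokine gene Gdf15 had 22.3, 39.7 and 17.6 normalised reads in the SAMHD1 MDA5 DKO libraries, 15.8, 27.5 and 37.9 in the SAMHD1 KO libraries, 74.4, 125 and 65.1 in the MDA5 KO libraries, and 9.30, 28.8 and 78.4 in the WT libraries. SAMHD1 MDA5 DKO minus MDA5 KO was -1.72 ± 0.68 (limma, unadjusted p = 0.0251, adjusted p = 1). Ddit4, an inhibitor of mTORC1, had 86.4, 41.4 and 86.8 normalised reads in the SAMHD1 MDA5 DKO libraries, 303, 106 and 105 in the SAMHD1 KO libraries, 118, 86.2 and 201 in the MDA5 KO libraries, and 184, 220 and 154 in the WT libraries. SAMHD1 MDA5 DKO lay wholly below WT, with -1.43 ± 0.47 (limma, adjusted p = 0.127), or -1.56 without WT 3 and SAMHD1 KO 1 together (limma, adjusted p = 0.0405), where 7.52% of all genes passed. The 10 genes of eIF2, eIF2B and their regulators had medians between -0.090 and 0.036 in the pairwise comparisons, while single genes lay further from 0. In SAMHD1 MDA5 DKO minus WT, Gcn1l1 was the highest at 0.88 ± 0.23 (limma, adjusted p = 0.127), or 0.73 without WT 3 (adjusted p = 0.171). Eif2s1 was the lowest there at -0.69. In SAMHD1 KO minus WT, Impact was the highest at 0.92 and Eif2b3 the lowest at -0.5.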
